A study of Mus musculus with 4 samples.

Results

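The genes examined here build fatty acids, take them up, store them as triacylglycerol, release them and oxidize them. The set has 46 genes, listed by name with their step in the pathway, out of 24532 NCBI gene identifiers in the deposited tables. Each gene was found by its NCBI number, and none was missing. Of these genes, 45 passed the minimum of a mean of 1 TPM (transcripts per 1000000) over the 4 libraries, and *Lpl* did not. The list and its steps were chosen with earlier results of these data known.

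Bulk RNA of granule-cell-enriched (GCE) tissue, cut by hand from slices of cerebellar vermis, was sequenced in 2 WT and 2 *Kdm3b*+/- mice, each giving 1 library. The mice were adult males, and the WT mice were littermates. In *Kdm3b*+/- mice, 1 of the *Kdm3b* alleles carries a pGT0lxf gene-trap vector in every cell of the body, so the loss is not confined to the cerebellum, and the line goes back to 1 embryonic stem cell clone that was bred onto C57Bl/6N and then crossed to C57Bl/6J. The labels name no treatment. *Kdm3b* encodes a demethylase of mono- and di-methylated lysine 9 of histone 3.

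Fatty acid synthesis runs from cytosolic citrate through acetyl-CoA and malonyl-CoA to palmitate, which desaturases and elongases turn into the longer and less saturated chains of membranes. For oxidation, a fatty acid is first joined to coenzyme A and then carried into mitochondria on carnitine, where malonyl-CoA blocks the entry step. In the brain, glial cells hold most of the capacity to oxidize fatty acids, oligodendrocytes make large amounts of lipid for myelin, and neurons store little triacylglycerol.

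*Kdm3b* itself had TPM values of 9.10 and 11 in WT mice against 8.30 and 7.90 in the *Kdm3b*+/- mice, and limma gave a log2 difference of −0.28 (standard error, SE, 0.17, adjusted p = 0.424). The genotypes did not overlap, with lower values in *Kdm3b*+/- mice, as in 32% of all genes tested. The mean was 19.4% lower, and the 95% interval of the log2 difference ran from −0.653 to 0.104. The paper reported less Kdm3b protein in vermis and flocculus of these mice by immunoblotting. Dividing coverage by FPKM gave 4.92 to 6.69 aligned gigabases per library. The granule cell genes *Gabra6* and *Neurod1* were at 984 to 1200 TPM and at 562.5 to 784.7 TPM, and the myelin gene *Mbp* was at 10520 to 12580 TPM, so the tissue also held oligodendrocyte RNA.

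Expression was compared between genotypes on the log2(TPM + 1) scale with limma, and p-values were adjusted over all 13652 genes tested. This scale shrinks the differences of weakly expressed genes. Genes were called differentially expressed (DEX) where the adjusted p was under 0.05 and the fold exceeded 1.2. Of the 45 genes, 1 was DEX, *Ccdc3*, which fell, and no gene was DEX with higher expression. Over all genes tested 0.461% were DEX, with 0.344% lower and 0.117% higher. At an unadjusted p under 0.05, 13 of the 45 genes (28.9%) were lower in *Kdm3b*+/- mice, where the share of all genes was 11.5%, and *Mgll* (2.22%) was higher, where the share of all genes was 5.47%.

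A lower mean in *Kdm3b*+/- mice was seen for 33 of the 45 genes (73.3%, and 60.4% of all genes). Neither *Kdm3b*+/- mouse reached the lower of the WT mice for 22 of the 45 genes (48.9%, and 32% of all genes) and both exceeded the higher WT mouse for *Mgll* alone (2.22%, and 19.2% of all genes). Counted in either direction, the groups did not overlap for 51.1% of the 45 genes and 51.3% of all genes. The median log2 fold change was −0.18, and that of all genes tested was −0.07. With a correction for length and GC content in every library, the medians were −0.05 and 0.001, and with median-ratio scaling −0.107 and −0.005. Between mice of a genotype, the median of the 45 genes in a library had an SD of 0.102. Counts and medians of a list chosen in this way carry no test of their own. The study's own list of DEX genes, called on these libraries, holds *Slc27a1*, *Elovl2*, *Pnpla2* and *Ccdc3*, and so is no independent evidence of their direction. Among the other 41 genes, 9 (22%) were lower at an unadjusted p under 0.05, and the median was −0.13.

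**Figure D1:**
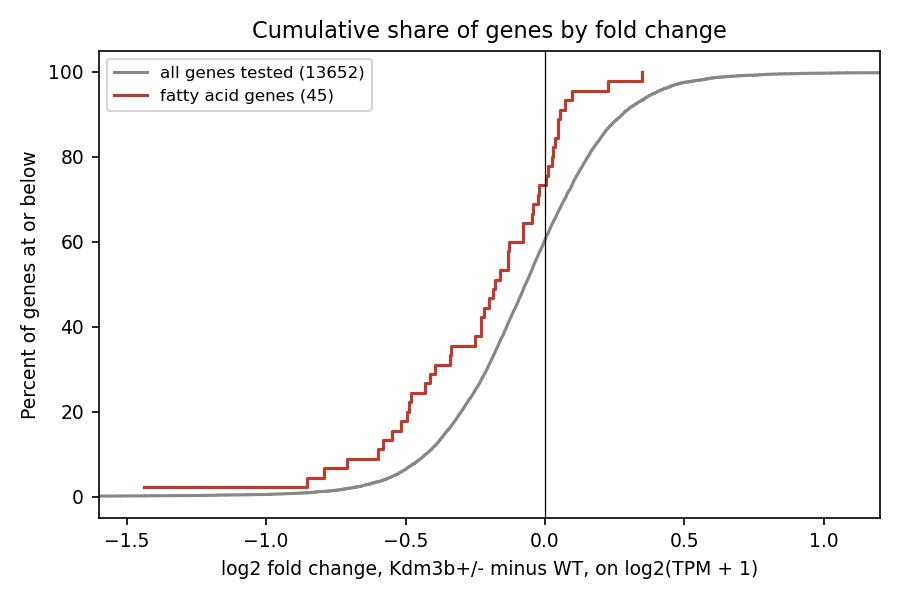
Cumulative share of genes (y axis, percent) at or below each log2 fold change of Kdm3b+/- minus WT (x axis, log2(TPM + 1) scale), for the 45 fatty acid genes in red and all 13652 genes tested in grey. The red line lies to the left of the grey line over most of the range, with medians of −0.18 and −0.07.

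Libraries did not contribute evenly. *Kdm3b*+/- mouse 1 had the lowest TPM of the 4 libraries for 27 of the 45 genes (60%), where it was lowest for 38% of all genes. The summed TPM of the 46 genes was 3037 and 3109 in WT mice against 2563 and 2876 in *Kdm3b*+/- mice 1 and 2. Without *Kdm3b*+/- mouse 1, 6 genes were at an unadjusted p under 0.05, all of them lower, and the median was −0.09. Of the 14 genes at an unadjusted p under 0.05, *Ccdc3*, *Slc27a1*, *Pnpla2* and *Elovl2* had log2 fold changes of −0.506 or lower whichever library was left out. The other 10 had smaller differences in some of these fits, down to −0.224 for *Cpt1c*.

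*Ccdc3* encodes a secreted protein of fat and blood vessel cells and belongs to none of the enzyme steps. It lies on the forward strand of chromosome 2, from 5137776 to 5230866 in the deposited tables. Its TPM values were 44.9 and 43.8 in WT mice against 17.6 and 14.1 in the *Kdm3b*+/- mice. The WT mice were nearly equal and both *Kdm3b*+/- mice had less than either. The mean was 44.3 ± 0.817 (SD, n = 2) in WT mice and 15.8 ± 2.48 (SD, n = 2) in *Kdm3b*+/- mice, and the log2 fold change was −1.44 (SE 0.16, 95% interval −1.80 to −1.08, adjusted p = 0.0116 from limma). Leaving out single libraries gave log2 fold changes of −1.59 to −1.29. The call was lost without WT mouse 1 (adjusted p = 0.0694), without WT mouse 2 (0.0523) and with no filter on low TPM (0.173), and the range over all alternatives was 0.000185 to 0.173.

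**Figure D2:**
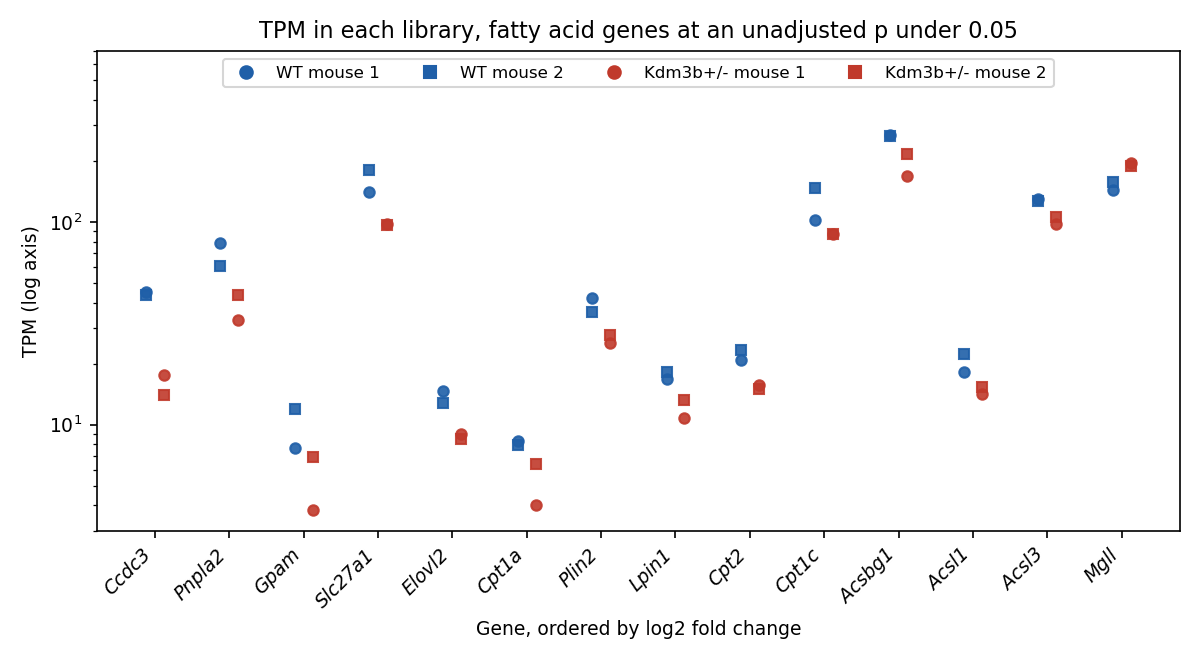
TPM (y axis, log scale) of the 14 fatty acid genes at an unadjusted p under 0.05 in each of the 4 libraries, with WT mice in blue, Kdm3b+/- mice in red, mouse 1 as circles and mouse 2 as squares, ordered by log2 fold change. In 13 genes both red points lie below both blue points, and in Mgll (143.7 and 157.9 against 194.6 and 189.1) they lie above.

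Lipolysis splits triacylglycerol in turn by *Pnpla2* (adipose triglyceride lipase), *Lipe* (hormone-sensitive lipase) and *Mgll* (monoacylglycerol lipase, which in the brain also breaks down the endocannabinoid arachidonoylglycerol). *Pnpla2*, on chromosome 7 from 141455188 to 141460743, had TPM values of 78.9 and 61.0 in WT mice against 32.9 and 43.7 in the *Kdm3b*+/- mice. The groups did not overlap, and the mean was 45.2% lower in *Kdm3b*+/- mice. The log2 fold change was −0.85 (SE 0.19, adjusted p = 0.106 from limma), so it was not DEX. It was DEX without *Kdm3b*+/- mouse 2 (adjusted p = 0.0177), with a range of 0.0177 to 0.378 over all alternatives.

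*Mgll* had TPM values of 143.7 and 157.9 in WT mice against 194.6 and 189.1 in the *Kdm3b*+/- mice. Both *Kdm3b*+/- mice had more than either WT mouse, with a log2 fold change of 0.35 (SE 0.13, adjusted p = 0.237 from limma). *Lipe* had 7.04 and 5.57 against 3.97 and 5.66 TPM, and the groups overlapped. *Lipe* shares its whole span of 16461 bases with *4732471J01Rik* on the other strand, whose TPM was 4.84 to 6.50. Whether the counting used strand is not given in the sources used here, and without strand the reads of these genes cannot be told apart.

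The ratio of *Mgll* to *Pnpla2* TPM was 1.82 and 2.59 in WT mice against 5.91 and 4.33 in the *Kdm3b*+/- mice. Both ratios in *Kdm3b*+/- mice exceeded both in WT mice. This follows from the values of each gene given above, which lay apart on opposite sides, and is no added result. *Pnpla2* made up 34.4% and 27.2% of the summed TPM of these lipases in WT mice against 14.2% and 18.3% in the *Kdm3b*+/- mice. The sum itself was 229.6 and 224.5 against 231.4 and 238.5 TPM.

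**Figure D3:**
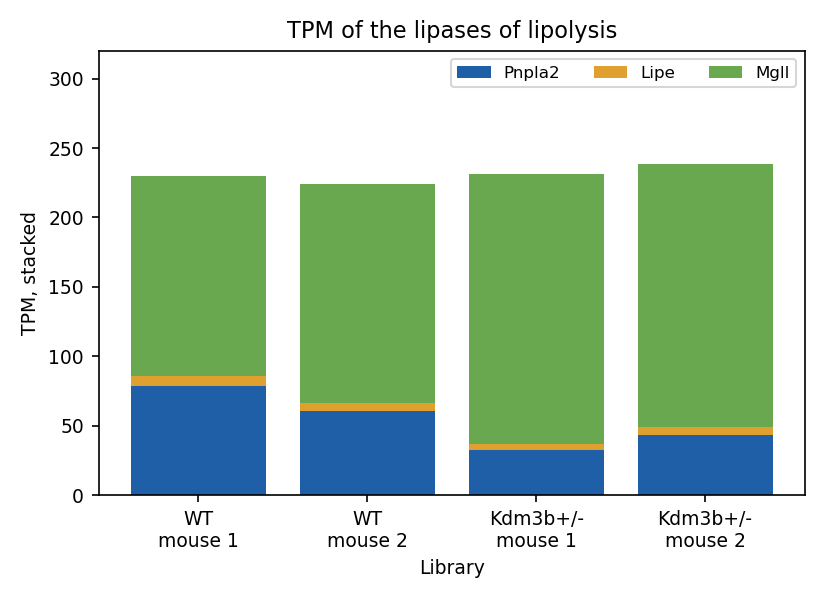
TPM of Pnpla2 (blue), Lipe (orange) and Mgll (green) stacked for each of the 4 libraries, with the y axis from 0. The total is between 224.5 and 238.5 TPM in every library, while the Pnpla2 part is smaller and the Mgll part larger in both Kdm3b+/- mice.

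Uptake and activation had 9 genes, of which 8 were tested. All 8 had a lower mean in *Kdm3b*+/- mice (60.4% of all genes did), 4 of them at an unadjusted p under 0.05 (50%, where 11.5% of all genes were), and the median was −0.21, but *Slc27a4*, *Acsl4* and *Acsl5* had a slightly higher mean with FPKM, median-ratio or quantile scaling or the length and GC correction, as *Acsl6* did with the last. *Slc27a1*, a fatty acid transporter with acyl-CoA synthetase activity, is on chromosome 8 from 71568927 to 71586708. It had TPM values of 141 and 182 in WT mice against 97.7 and 97.2 in the *Kdm3b*+/- mice. The *Kdm3b*+/- mice were nearly equal, while the WT mice differed by a factor of 1.29, and the groups did not overlap. The log2 fold change was −0.71 (SE 0.15, adjusted p = 0.105 from limma). Its relative *Slc27a4* had 35.05 and 36.3 against 32.0 and 37.4 TPM, and the groups overlapped. *Slc27a1* made up 80.1% and 83.4% of the summed TPM of the pair in WT mice against 75.3% and 72.2% in the *Kdm3b*+/- mice.

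*Acsbg1*, an acyl-CoA synthetase found in astrocytes, had the highest mean TPM of the 46 genes. It had 269 and 265 TPM in WT mice against 169 and 216 TPM in the *Kdm3b*+/- mice. The groups did not overlap, and the log2 fold change was −0.48 (SE 0.15, adjusted p = 0.183). *Acsl3*, a synthetase of the endoplasmic reticulum and of lipid droplets, had 131 and 127 against 97.7 and 106 TPM (log2 fold change −0.34, adjusted p = 0.246). It overlaps the weakly expressed *Utp14b* on the same strand by 9777 bases. *Acsl1*, which serves both storage and oxidation, had 18.1 and 22.4 against 14.1 and 15.3 TPM (log2 fold change −0.43, adjusted p = 0.246). These p-values are from limma. All 3 synthetases were lower in both *Kdm3b*+/- mice than in either WT mouse, as were 32% of all genes. The log2 fold change of *Acsbg1* was −0.30 without *Kdm3b*+/- mouse 1, and that of *Acsl1* was −0.29 without WT mouse 2. *Acsl6*, which activates docosahexaenoate in the brain, had 130 and 133 against 111 and 139 TPM, and overlapped, as did *Acsl4* at 5.01 to 6.40 TPM and *Acsl5* at 10.3 to 11.45 TPM. *Lpl*, lipoprotein lipase, was near the limit of detection, at 0.664 and 0.711 against 0.264 and 0.607 TPM, with a mean read depth of 0.698 to 1.86.

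The carnitine shuttle had 3 genes, and in all 3 both *Kdm3b*+/- mice lay below both WT mice at an unadjusted p under 0.05. Over all genes tested, 32% were lower without overlap and 11.5% were lower at this p. *Cpt1a*, the liver-type carnitine palmitoyltransferase that malonyl-CoA inhibits, had TPM values of 8.30 and 7.90 in WT mice against 4.01 and 6.42 in the *Kdm3b*+/- mice. *Cpt1c*, the neuronal relative in the endoplasmic reticulum, which has little transferase activity, had 102 and 148 against 87.3 and 87.6 TPM. *Cpt2*, which returns the chain to coenzyme A inside mitochondria, had 20.75 and 23.4 against 15.7 and 15.0 TPM. The log2 fold changes were −0.58, −0.49 and −0.49, with SEs of 0.21, 0.18 and 0.15 and adjusted p-values of 0.234, 0.235 and 0.185 from limma. *Cpt1a* ran from −0.86 to −0.30 with single libraries left out, the latter without *Kdm3b*+/- mouse 1, and *Cpt1c* from −0.75 without WT mouse 1 to −0.22 without WT mouse 2. None was DEX in any of the alternatives. *Cpt1c* made up 92.5% to 95.6% of the *Cpt1a* and *Cpt1c* transcripts in every library.

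Mitochondrial beta-oxidation itself had 9 genes, none of them at an unadjusted p under 0.05. Their median log2 fold change was −0.13, from −0.41 to 0.07, and the groups did not overlap, with lower values, for 4 of them. Over all genes, 32% were lower without overlap. *Acadvl*, the dehydrogenase of very long chains, had 159 and 181 TPM in WT mice against 141 and 154 TPM in the *Kdm3b*+/- mice. *Acaa2*, the last thiolase step, had 88.85 and 84.2 against 70.4 and 77.1 TPM, and *Acads*, of short chains, had 4.98 and 5.07 against 4.77 and 4.23 TPM. *Acadl*, of long chains, ranged from 63.35 to 96.9 TPM, *Acadm*, of medium chains, from 47.1 to 57.0 TPM, and *Hadh* from 37.2 to 50.8 TPM, with overlap in each. *Echs1*, the hydratase, had 164 and 138 against 140 and 163 TPM, a log2 fold change of 0.005 (95% interval −0.325 to 0.335).

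*Hadha* and *Hadhb* encode the subunits of the mitochondrial trifunctional protein. They start 272 bases apart on opposite strands of chromosome 5. *Hadha* had TPM values of 21.4 and 21.4 in WT mice against 12.6 and 19.9 in the *Kdm3b*+/- mice, without overlap, and with the lowest value in *Kdm3b*+/- mouse 1. *Hadhb* had 224 and 196 against 220 and 203 TPM, and overlapped. The log2 fold changes were −0.41 (95% interval −0.88 to 0.06) and 0.01 (95% interval −0.29 to 0.31). TPM of *Hadhb* was 9.16 to 17.5 times that of *Hadha*. These levels are StringTie estimates.

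**Figure D4:**
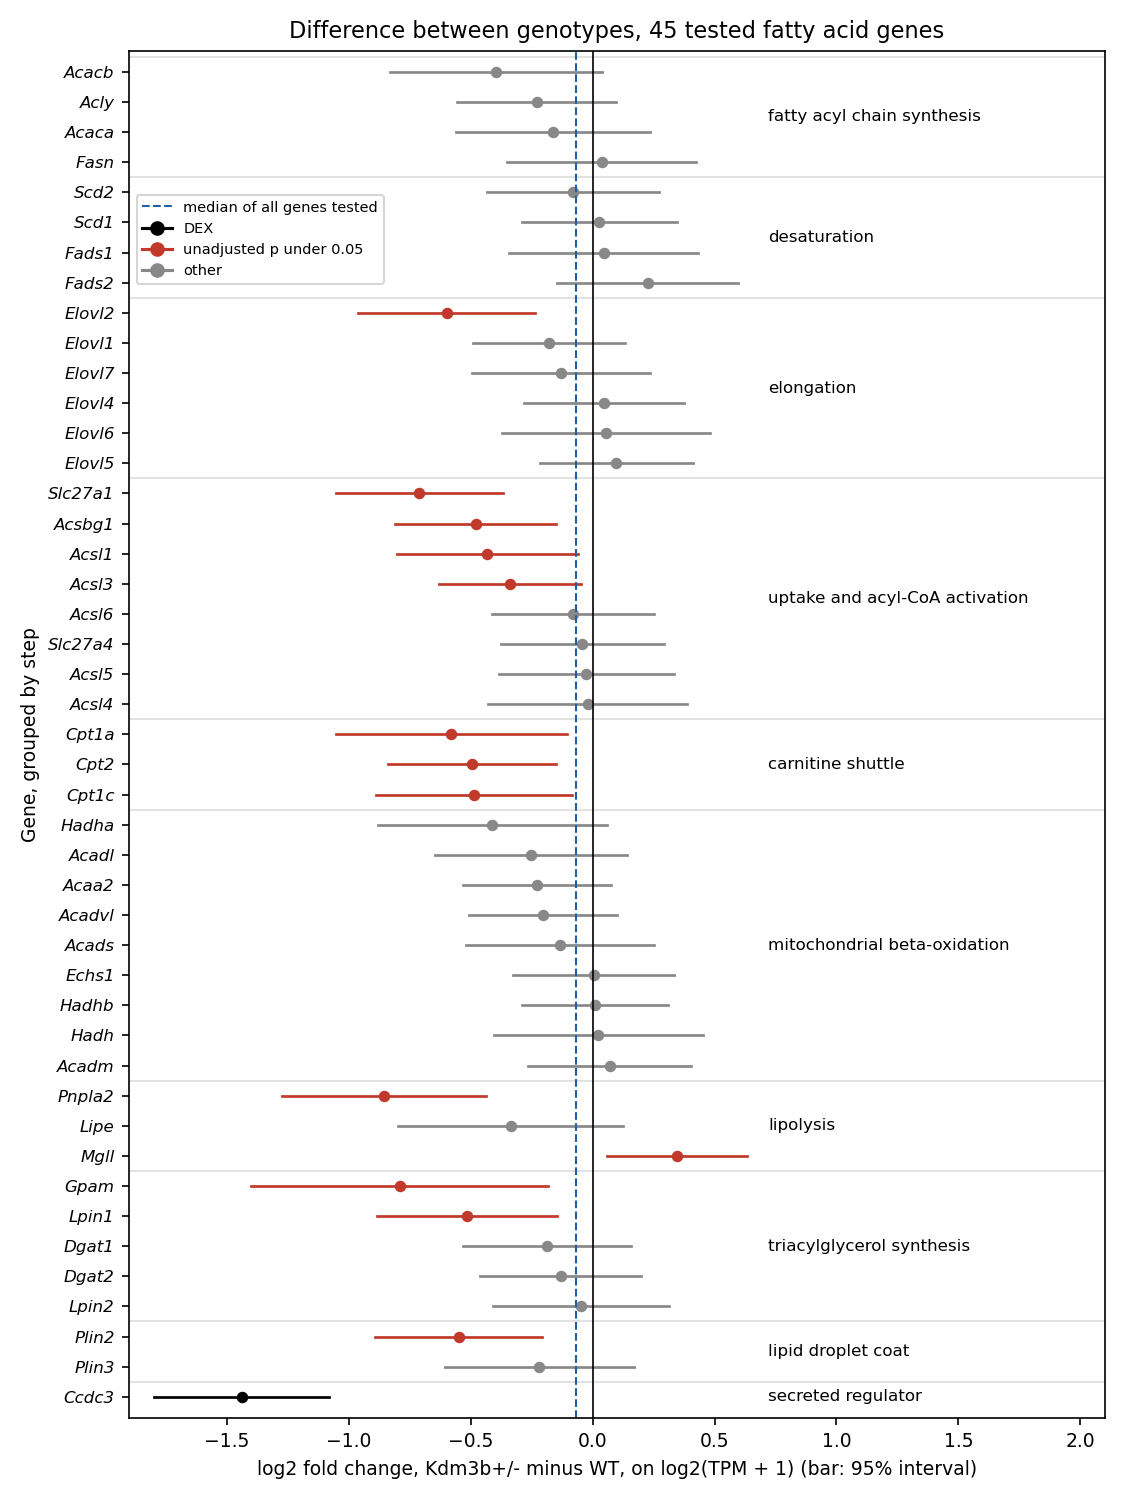
Log2 fold change of Kdm3b+/- minus WT on the log2(TPM + 1) scale (x axis) with its 95% interval from limma, for the 45 tested genes (y axis) grouped by step. Ccdc3 (black) is the DEX gene, the 13 other genes at an unadjusted p under 0.05 are red, and the dashed line is the median of all genes tested, −0.07.

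Synthesis of the chain had 4 genes, none at an unadjusted p under 0.05. *Acly*, which makes acetyl-CoA from citrate, had 67.6 and 74.6 TPM in WT mice against 56.1 and 64.9 TPM in the *Kdm3b*+/- mice. *Acaca*, the cytosolic acetyl-CoA carboxylase, had 4.68 and 4.185 against 3.62 and 4.09 TPM. *Acacb*, the carboxylase at the mitochondrial surface whose malonyl-CoA blocks carnitine entry, had 1.46 and 1.54 against 0.912 and 0.893 TPM. In these 3 genes both *Kdm3b*+/- mice lay below both WT mice, as in 32% of all genes. *Acacb* had the largest log2 difference of the step (log2 fold change −0.395, SE 0.19, adjusted p = 0.330 from limma). *Fasn*, the fatty acid synthase, had 15.85 and 20.6 against 17.7 and 19.4 TPM, with both *Kdm3b*+/- values between the WT values.

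The desaturases overlapped in all 4 cases, where 51.3% of all genes did not overlap. *Scd2*, the main stearoyl-CoA desaturase of brain, had 190 and 223 TPM in WT mice against 173 and 220 TPM in the *Kdm3b*+/- mice, and *Scd1* had 36.0 and 38.0 against 36.5 and 39.0 TPM. *Scd2* made up 82.5% to 85.4% of the pair. *Fads1* and *Fads2*, which make polyunsaturated chains, ranged from 78.7 to 106 TPM and from 75.7 to 105.5 TPM, both highest in *Kdm3b*+/- mouse 2. *Fads2* had the largest log2 difference of the step, 0.23 (SE 0.16, adjusted p = 0.503 from limma). The 95% interval of *Scd1* ran from −0.29 to 0.35, and that of *Scd2* from −0.43 to 0.27.

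Of the 6 elongases, *Elovl2*, which lengthens the precursors of docosahexaenoate, was at an unadjusted p under 0.05. It is on chromosome 13 from 41182382 to 41220403, and had TPM values of 14.7 and 12.8 in WT mice against 8.99 and 8.47 in the *Kdm3b*+/- mice. The groups did not overlap, and the log2 fold change was −0.60 (SE 0.16, adjusted p = 0.154 from limma). *Elovl2* made up 5.10% and 4.44% of the elongase transcripts in WT mice against 3.23% and 3.002% in the *Kdm3b*+/- mice. *Elovl1*, of saturated very long chains, had 92.0 and 88.7 against 74.3 and 85.3 TPM, and *Elovl7* had 12.1 and 12.2 against 10.1 and 12 TPM, without overlap but with intervals that include 0. *Elovl4* (78.0 to 94.3 TPM), *Elovl5* (64.3 to 75.5 TPM) and *Elovl6* (17.6 to 25.4 TPM) overlapped, with log2 fold changes between 0.05 and 0.10.

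Triacylglycerol synthesis had 5 genes, all with a lower mean in *Kdm3b*+/- mice, as 60.4% of all genes had. *Lpin2* had a slightly higher mean with FPKM, median-ratio or quantile scaling or the length and GC correction. *Gpam*, the mitochondrial acyltransferase that starts the pathway, had TPM values of 7.71 and 12 in WT mice against 3.79 and 6.89 in the *Kdm3b*+/- mice. Mice of the same genotype differed by a factor of 1.55 and 1.82, the groups did not overlap, and the log2 fold change was −0.79 (SE 0.27, adjusted p = 0.215 from limma). It was DEX without *Kdm3b*+/- mouse 2 (adjusted p = 0.0246), with a range of 0.0246 to 0.871 over all alternatives. The log2 fold change was −1.15 in that fit, −0.50 without WT mouse 2 and −0.43 without *Kdm3b*+/- mouse 1. *Lpin1*, a phosphatidate phosphatase, had 16.8 and 18.2 against 10.8 and 13.2 TPM (log2 fold change −0.515, adjusted p = 0.191 from limma). *Lpin2* and the final acyltransferases *Dgat1* and *Dgat2* had log2 fold changes of −0.05, −0.19 and −0.13, and their groups overlapped. Of the lipid droplet coat proteins, *Plin2* had 42.4 and 36.2 against 25.3 and 27.6 TPM, without overlap (log2 fold change −0.55, SE 0.15, adjusted p = 0.161 from limma), and *Plin3* had 93.5 and 77.6 against 63.5 and 83.97 TPM, with overlap.

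The 4 genes with the smallest p, chosen by p alone, were all lower in *Kdm3b*+/- mice. The sequences upstream of these genes are shown. They are the 250 bases before the RefSeq start in GRCm38.p6, 5′ to 3′ on the strand of the gene, with each match to a searched motif in capitals. They lie at chr2:5137526-5137775 (forward strand), chr8:71568621-71568870 (forward strand), chr7:141454938-141455187 (forward strand) and chr13:41220404-41220653 (reverse strand).
*Ccdc3*: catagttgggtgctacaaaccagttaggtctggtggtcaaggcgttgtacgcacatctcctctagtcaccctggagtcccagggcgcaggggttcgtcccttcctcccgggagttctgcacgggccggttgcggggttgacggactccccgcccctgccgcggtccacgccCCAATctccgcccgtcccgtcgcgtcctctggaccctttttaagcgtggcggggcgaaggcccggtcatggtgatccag
*Slc27a1*: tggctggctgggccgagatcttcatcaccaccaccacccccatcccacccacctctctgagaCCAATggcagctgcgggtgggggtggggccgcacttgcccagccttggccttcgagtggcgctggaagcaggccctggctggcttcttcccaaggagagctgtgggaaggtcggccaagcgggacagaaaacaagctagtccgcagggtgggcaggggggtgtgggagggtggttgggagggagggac
*Pnpla2*: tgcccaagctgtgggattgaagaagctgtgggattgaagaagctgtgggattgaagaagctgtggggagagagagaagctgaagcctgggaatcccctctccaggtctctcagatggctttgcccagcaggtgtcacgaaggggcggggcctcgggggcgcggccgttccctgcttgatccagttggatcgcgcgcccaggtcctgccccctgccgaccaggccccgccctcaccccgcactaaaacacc
*Elovl2*: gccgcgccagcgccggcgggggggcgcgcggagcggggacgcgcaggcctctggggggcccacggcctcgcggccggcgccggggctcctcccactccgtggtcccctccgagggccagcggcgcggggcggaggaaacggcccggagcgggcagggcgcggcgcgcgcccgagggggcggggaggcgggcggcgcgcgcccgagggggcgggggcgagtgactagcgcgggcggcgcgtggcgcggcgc
The motifs, searched on both strands, were CCAAT (bound by NF-Y), CACGTG (an E-box), TCACNCCAC (a sterol regulatory element), a PPAR direct repeat and a glucocorticoid palindrome. CCAAT began 79 bases before the start of *Ccdc3* and 188 bases before that of *Slc27a1*, and no motif was in the windows of *Pnpla2* and *Elovl2*, of which the latter had a GC content of 87.2%. The RefSeq start used for *Lpin1* lay 21196 bases from its deposited start. Upstream sequence was found for 39 of the 46 genes. CCAAT was in 15 of them (38.5%), where 33.8% of 32817 upstream sequences of this length held it, and CACGTG in 3 (7.69%, against 6.02%). The other motifs were in none of the 39, and in 1.05%, 0.0335% and 0.00914% of all. Of the 14 genes at an unadjusted p under 0.05, 7 had CCAAT and 1, *Mgll*, had CACGTG.

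Other genes of fatty acid metabolism, in 8 lists of 140 genes, were examined beside the 46. None of the 119 that were tested was DEX. At an unadjusted p under 0.05, 18 were lower (15.1%, near the 11.5% of all genes) and 3 were higher (2.52%, and 5.47% of all genes), and the median was −0.11. The counts of each list are to be read beside these shares of all genes, 11.5% lower and 5.47% higher. In peroxisomal oxidation, 4 of 19 genes (21.1%) were lower and none higher. *Ehhadh*, a bifunctional enzyme, had 4.93 and 5.29 against 2.34 and 2.77 TPM (log2 fold change −0.78, adjusted p = 0.115 from limma). In the other mitochondrial oxidation genes, 0 of 19 passed, with a median of −0.05. In ketone body metabolism, 2 of 8 (25%) were lower. *Aacs*, which activates acetoacetate in the cytosol, had 50.9 and 80.8 against 43.5 and 45.9 TPM (log2 fold change −0.51), and the groups did not overlap.

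Among 19 transcription and energy regulators, 4 were lower (21.1%, and 11.5% of all genes) and none higher. *Srebf1*, which switches on lipid synthesis genes, had 21.8 and 29.1 against 11.7 and 18.4 TPM (log2 fold change −0.74, adjusted p = 0.183), and *Rxra*, the partner of PPAR and LXR receptors, had 4.14 and 3.40 against 2.06 and 2.24 TPM (−0.60). Of 12 lipase cofactors and other lipases, 2 were lower (16.7%) and 1 was higher (8.33%, and 5.47% of all genes). *Angptl4*, which inhibits lipoprotein lipase, had 9.20 and 4.29 against 1.87 and 1.80 TPM (log2 fold change −1.37, adjusted p = 0.0997), and *Lipa*, the lysosomal lipase, had 7.86 and 8.83 against 4.70 and 6.01 TPM (−0.56). The higher gene, named after its values were seen, was *G0s2*, an inhibitor of the *Pnpla2* lipase, with 32.0 and 32.8 against 45.7 and 45.05 TPM (0.475). In both *G0s2* and *Pnpla2* the groups did not overlap, as in 51.3% of all genes, and they lay on opposite sides. Neither gene was DEX (adjusted p = 0.174 and 0.106 from limma), and a link between them was not tested.

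Of 13 lipid droplet and glycerolipid genes 3 were lower (23.1%, and 11.5% of all genes). Among them were *Lpin3* with 2.08 and 3.10 against 0.827 and 1.002 TPM (log2 fold change −0.89) and *Agpat3* with 68.4 and 69.9 against 43.2 and 56.2 TPM (−0.48). Of 11 other uptake and activation genes 3 were lower (27.3%). *Acsm5*, a medium-chain synthetase, had 3.30 and 2.69 against 1.62 and 1.18 TPM (−0.74). *Acss1*, the mitochondrial acetyl-CoA synthetase, had 13.6 and 17.0 against 7.93 and 11.4 TPM (−0.62). In other chain building and citrate supply, 2 of 18 genes were higher (11.1%, and 5.47% of all genes) and none lower. *Hacd1*, a dehydratase of elongation, had 33.8 and 27.9 against 47.1 and 46.9 TPM (0.60). *Ndufab1*, the mitochondrial acyl carrier protein and a subunit of respiratory complex I, had 209 and 180 against 261 and 224 TPM (0.32). The median of this list was 0.10. Of the genes named from these pathway lists, *Ehhadh*, *Srebf1*, *Rxra*, *Angptl4*, *Lpin3* and *Hacd1* are in the study's own list of DEX genes.

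**Figure D5:**
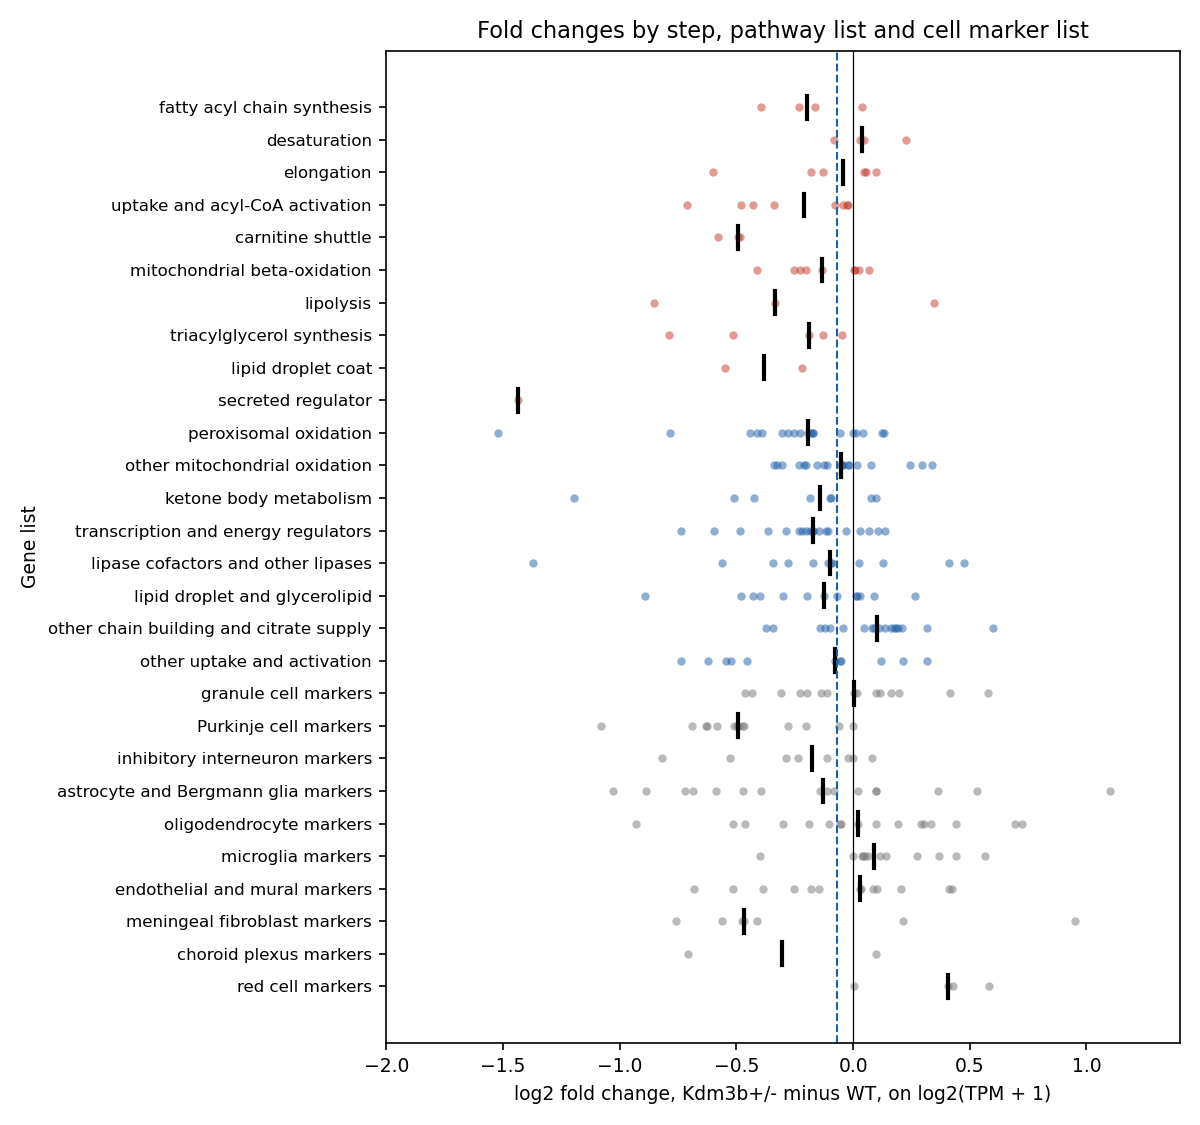
Log2 fold change of Kdm3b+/- minus WT on the log2(TPM + 1) scale (x axis) of each tested gene, as a point, in each list (y axis), with the steps of the 46 genes in red, the other pathway lists in blue and the cell marker lists in grey. Black bars are list medians, the dashed line is the median of all genes tested, and 1 red cell gene below −2 lies off the axis.

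Markers of cell types were read beside these results, since in bulk tissue fewer cells of a type and less RNA per cell cannot be told apart. Of 14 Purkinje cell markers tested, 13 had a lower mean in *Kdm3b*+/- mice (92.9%, and 60.4% of all genes), with a median of −0.495. Their summed TPM, most of it *Aldoc*, which astrocytes express too, was 4863 and 3258 in WT mice against 3083 and 2631 in the *Kdm3b*+/- mice. *Pcp2* had 280.5 and 132.9 against 187.3 and 183.0 TPM, so WT mouse 1 was high and the groups overlapped. Of 7 meningeal fibroblast markers tested, 5 were lower at an unadjusted p under 0.05 (71.4%, and 11.5% of all genes), 1 was higher, the median was −0.47, and their summed TPM, most of it *Apod*, which oligodendrocytes express too, was 771.4 and 578.5 against 462.9 and 543.3. *Col1a1* was at 0.540 to 0.831 TPM. Of 16 astrocyte and Bergmann glia markers, 6 were lower (37.5%, and 11.5% of all genes) and 3 higher (18.8%, and 5.47% of all genes) at an unadjusted p under 0.05, the median was −0.13, and their summed TPM was 3568 and 3057 against 2862 and 3285. *Aqp4*, a water channel of astrocytes, was DEX and higher (59.2 and 82.35 against 150 and 152.1 TPM). The lower ones were *Gdf10* (log2 fold change −1.03), *Fgfr3* (−0.89), *Timp4* (−0.72), *Aldh1l1* (−0.69), *Gjb6* (−0.59) and *Slc1a3* (−0.47). None of them was DEX in this fit, and all were without overlap, where 32% of all genes were lower without overlap. The study's own list of DEX genes holds *Aqp4*, *Fgfr3*, *Timp4*, *Aldh1l1* and *Gjb6*. The other higher ones were *Hopx* (0.53) and *Ntsr2* (0.36). *Gfap* and *S100b* were at 109 to 180 TPM and at 275 to 412 TPM, and both overlapped between genotypes. The part of these cells in the lower values of *Pnpla2*, *Slc27a1*, *Acsbg1* and the carnitine shuttle genes was not tested.

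The median was 0.005 for 15 granule cell markers, 0.02 for 17 oligodendrocyte markers, 0.09 for 12 microglia markers, 0.03 for 13 endothelial and mural markers and −0.175 for 8 inhibitory interneuron markers. Members of some lists went both ways. Of the oligodendrocyte markers *Mobp*, a myelin protein, was DEX and lower (924.7 and 892.7 against 470.6 and 482.5 TPM, log2 fold change −0.93, adjusted p = 0.0133 from limma), and at an unadjusted p under 0.05 *Mal* was lower (−0.46) and *Opalin* (0.695) and *Ugt8a* (0.72) were higher. Of the granule cell markers *Cbln3* was lower (−0.43) and *Zic1* (0.58) and *Cbln1* (0.415) were higher at that p, and of the microglia markers *Aif1* (0.57) and *Trem2* (0.44) were higher. The markers beyond the first of each list were named after their values were seen. Of these, *Mobp*, *Opalin*, *Ugt8a*, *Zic1* and *Cbln1* are in the study's own list of DEX genes. Choroid plexus was near absent, with *Ttr* between 0 and 1.28 TPM, 2 of 8 markers tested and a median of −0.30. Of 5 red cell genes 4 had a higher mean (median 0.41), while *Hbb-bs* was at 506 TPM in WT mouse 1 and at 8.08 TPM or less in the others. Hemoglobin genes have near-identical copies between which reads can be split.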

How the data were processed

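RNA of GCE tissue was measured in 4 libraries, 2 WT and 2 *Kdm3b*+/-, grouped by the genotype in the labels. The authors trimmed low-quality bases, aligned reads with STAR and estimated gene abundance with StringTie. They deposited coverage (mean read depth over exons, not normalized), FPKM (per kilobase and per 1000000 fragments) and TPM (per kilobase, scaled to 1000000 per library). Tool versions, genome build and annotation are not given in the sources used here. Of the identifiers, 99.6% lay on their RefSeq GRCm38 chromosome, and the positions given are those of the deposited tables. TPM carries no depth, and StringTie estimates do not give back whole reads.

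Symbols came from RefSeq for 24462 of 24532 identifiers. Rows that share an identifier were summed. Log2(TPM + 1) values of genes averaging 1 TPM or more entered lmFit and trended eBayes of limma 3.58.1 (R 4.3.3), with Benjamini-Hochberg adjustment. The study's DESeq2 step on counts was not repeated. An exact permutation test of 2 mice against 2 cannot go below 0.333. The fit was tested on simulated data. Robust fits used statmod 1.5.0, and tables and figures Python 3.11.15, NumPy 2.4.6, pandas 2.3.3 and Matplotlib 3.10.9.

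The members and lists were chosen with earlier results of these data known. Genes are given per library where the unadjusted p was under 0.05, the mean TPM was among the 10 highest or the change was the largest of the step, with others for completeness. Outside the 46, the 2 largest changes per list at an unadjusted p under 0.05, *Srebf1* and *Angptl4* are named. Some genes that this rule names are not reported here. Alternatives were a pseudocount of 0.1, FPKM, no TPM filter or a minimum of 5, median-ratio and quantile scaling, the highest row per identifier, other eBayes settings, a replicate block, a loess correction (span 0.5) for GENCODE transcript length and GC content, each library left out, and other thresholds. Intervals at 95% are from limma. Protein sequences were not used here.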

Additional observations from a re-analysis of the deposited data

How the results depend on the processing

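With 2 mice a group, these p-values rest on the spread between few animals, which eBayes shares across genes. They do not measure the spread of each gene alone, and TPM gives no depth per gene. The 14 genes at an unadjusted p under 0.05 changed sign in 0 of 224 refits, 16 alternatives for each. In these genes the groups did not overlap, so leaving out a library could not change the sign. The fold change stays the same with other eBayes settings, the replicate block or another TPM filter. This count is therefore no test of direction. DEX genes among all genes numbered 38 with FPKM, 1 with no TPM filter, 37 without the eBayes trend, 33 at a log2 fold change over 1.2, 61 with median-ratio scaling (23 higher, 38 lower, against 16 and 47), and 21 to 188 with each library left out. Among the fatty acid genes they numbered 0 with no filter and 0 to 3 with each library left out, those at an unadjusted p under 0.05 numbered 6 to 12, and the median was −0.25 to −0.09. A lone library was assumed to vary like the other group. The median moved to −0.054 with the length and GC correction, with or without the block.

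Mice with the same number are different animals. Deviations of same-numbered libraries had a correlation of 0.121, or 0.0229 after the length and GC correction. Whether such mice share a litter or batch is not given in the sources used here, and this correlation cannot tell. With the replicate block 600 of all genes (173 higher, 427 lower) and 4 of the fatty acid genes were DEX, namely *Ccdc3*, *Slc27a1*, *Pnpla2* and *Gpam*. With the correction and the block there were 59 and 1.

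Of the 31 other genes, 15 changed sign in some setting. *Slc27a4*, *Acsl4*, *Acsl5* and *Lpin2* had log2 fold changes of 0.02, 0.03, 0.031 and 0.012 with FPKM, 0.029, 0.043, 0.041 and 0.021 with median-ratio scaling, and 0.072, 0.071, 0.083 and 0.075 with quantile scaling, which also gave *Hadhb* −0.034. The length and GC correction, with or without the block, gave them 0.207, 0.019, 0.114 and 0.088, *Scd2* 0.064 and *Acsl6* 0.002. With each library left out, *Fasn* ran from −0.142 to 0.215, *Scd1* from −0.02 to 0.075, *Scd2* from −0.254 to 0.094, *Fads1* from −0.17 to 0.26, *Elovl4* from −0.09 to 0.18, *Elovl6* from −0.198 to 0.307, *Slc27a4* from −0.152 to 0.067, *Acsl4* from −0.17 to 0.13, *Acsl5* from −0.096 to 0.044, *Acsl6* from −0.242 to 0.084, *Acadm* from −0.065 to 0.205, *Hadh* from −0.195 to 0.243, *Hadhb* from −0.086 to 0.106, *Echs1* from −0.119 to 0.129 and *Lpin2* from −0.143 to 0.05. The cause of these changes was not tested.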

Other observations

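*Acaa1b*, a peroxisomal thiolase, was listed at 9.56 and 8.70 TPM in WT mice against 0.126 and 10.1 TPM in *Kdm3b*+/- mice 1 and 2. The groups overlapped. It was chosen after its values were seen. The closely related *Acaa1a* had 144.0 and 161.5 against 127.4 and 168.5 TPM, and reads can be split between such copies.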
